A study of Sus scrofa with 60 samples.

Results

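The type I interferon-stimulated genes described here are 10 antiviral and regulatory genes, MX1, MX2, ISG15, IFIT1, IFIT2, IFIT3, OAS2, RSAD2, IRF7, and USP18. They were chosen by name, as the rows of the liver count table that carry these symbols. All 10 were found among 30335 named genes, and all 10 passed the filter on low counts, as did 16210 genes in all.

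Liver RNA was sequenced from 60 neonatal pigs killed on day 14, in a study that asked how bile duct ligation (BDL) and the route and lipid source of feeding act together on the cholestatic liver. The animals, of both sexes, were the slightly preterm offspring of mixed-breed Landrace × Hampshire sows, were delivered by cesarean section, carried a jugular catheter, and underwent either sham surgery or ligation of the cystic and common bile ducts after birth. All pigs, controls included, received parenteral nutrition for the first day. The ENT pigs were then moved stepwise to milk replacer formula by orogastric tube, so that part of their feeding was parenteral in the days after that as well (12 ENT-sham, 10 ENT-BDL), the SLE pigs stayed on parenteral nutrition with a soybean oil lipid emulsion (10 SLE-sham, 11 SLE-BDL), and the MLE pigs on parenteral nutrition with a multicomponent lipid emulsion that holds fish oil (9 MLE-sham, 8 MLE-BDL). Surgical blockage of the duct in a healthy newborn is a model of obstructive cholestasis and lacks the inflammatory disease of the duct wall that precedes obstruction in biliary atresia.

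Type I interferons are secreted when a cell detects foreign or misplaced nucleic acid, and they act on the receptor pair IFNAR1 and IFNAR2 of neighbouring cells. The receptor signals through the kinases JAK1 and TYK2 to transcription factors that bind a shared DNA element and switch on the interferon-stimulated genes. In liver both hepatocytes and resident macrophages can respond, and the response is best known from viral infection.

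Counted reads per library lay between 14469788 and 21374161, with a median of 17254606. Expression is given as CPM, the read count of a gene scaled to a common library total, with library sizes adjusted by the trimmed mean of M values (TMM). ENT-sham replicate 2 and ENT-BDL replicate 1 were far closer to each other than any other 2 of the 60 libraries (chi-square per degree of freedom 1.87 over 17232 genes, against 15.0 for the next pair of 1770), although their labels place them in different groups. The counts of called genes and the fold changes that follow were recomputed without both, and values that moved are given. Without them the median SD and the median correlation of the members, described next, were 1.45 and 0.94 over 58 pigs. Each pig's label also carries 1 of 8 numbers whose meaning the labels do not give, and pigs are referred to by it as number-329 to number-353. MLE pigs carry only number-348, number-351, number-352, and number-353. Hepatocyte markers were abundant in every group, their summed level being lowest at 68260 CPM in an ENT-sham pig and highest at 147860 CPM in an SLE-BDL pig, so the labelled tissue matched its markers. In whole liver, fewer cells that express a gene and less RNA per cell cannot be told apart.

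The members are described by role. MX1 and MX2 are dynamin-like GTPases that trap viral ribonucleoprotein, and they lie side by side on chromosome 13 of Sscrofa11.1 (chr13:204843049-204868927 and chr13:204798633-204821612). IFIT1, IFIT2, and IFIT3 bind foreign RNA and hold back its translation, and they form a cluster on chromosome 14 (chr14:101237403-101249486, chr14:101193421-101204292, and chr14:101214730-101225169). The other effectors are OAS2 (chr14:38827667-38847697), which makes the 2'-5' oligoadenylates that activate RNase L, and RSAD2 (chr3:128880853-128897809), the radical SAM enzyme viperin that makes a chain-terminating nucleotide. The regulators are ISG15 (chr6:63363201-63364211), a ubiquitin-like protein that is joined to other proteins and is also secreted, USP18 (chr5:70183321-70227990), the protease that removes ISG15 and restrains the receptor, and IRF7 (chr2:372235-375572), the transcription factor that amplifies interferon production.

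Some neighbours could lend reads to these genes. The span of all 3 IFIT genes is overlapped by LIPA on the opposite strand, with a median of 2880.5 counts, and ISG15 is overlapped by LOC110261384 on the opposite strand, with at most 51 counts in any pig. The library kit does not mark strand and the strand setting of the counting was not stated, so reads of overlapping exons cannot be told apart. With group means subtracted, the correlation with the mean level of the members over 60 pigs was -0.31 for LIPA and 0.41 for LOC110261384. The relatives OAS1 and OASL and a gene described as IFIT5 (LOC100151816) have rows of their own, with medians of 165.5, 10, and 380.5 counts.

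On a scale that allows genes to be compared, CPM per kilobase of gene length, ISG15 had the highest median over all pigs (29.3), followed by MX1 (17.8), OAS2 (17.1), and IRF7 (13.1). IFIT3 (7.34), USP18 (6.81), and IFIT1 (6.47) came next. IFIT2 (4.53), MX2 (4.40), and RSAD2 (4.36) had the lowest medians in CPM per kilobase. Within each gene the pigs differed far more than neighbours in this order did, so the order holds for medians and not for any single animal.

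The feature of these genes that stood out was the difference between pigs. RSAD2 ranged from 2.25 CPM (37 counts) in SLE-BDL replicate 10 to 903 CPM (17661 counts) in SLE-BDL replicate 6, a 401-fold range with both ends in the same group. The highest pig exceeded the lowest 149-fold for ISG15, 90.1-fold for MX1, 86.8-fold for MX2, 79.3-fold for IFIT3, and 69.7-fold for IFIT1. OAS2 (47.3-fold), USP18 (43.4-fold), IFIT2 (29.4-fold), and IRF7 (22.9-fold) had narrower ranges. RSAD2 thus combined the lowest median level per kilobase with the widest range.

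The pooled SD between pigs of the same group was 2.12 on the log2 CPM scale for RSAD2, 1.87 for ISG15, and 1.69 for MX1. Even the steadiest member, IRF7, had an SD of 1.07. The median SD was 1.43 over the 10 members and 0.31 over the 16210 genes tested, and 23 of those genes had a larger SD than RSAD2. The share of the variance of a member in log2 CPM that lay between the 6 groups was 3.35% (MX2) to 10.6% (ISG15), against a median of 21.9% over all tested genes. These shares are not corrected for the number of groups, and a random division of the pigs into 6 groups would also give a share.

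**Figure D1:**
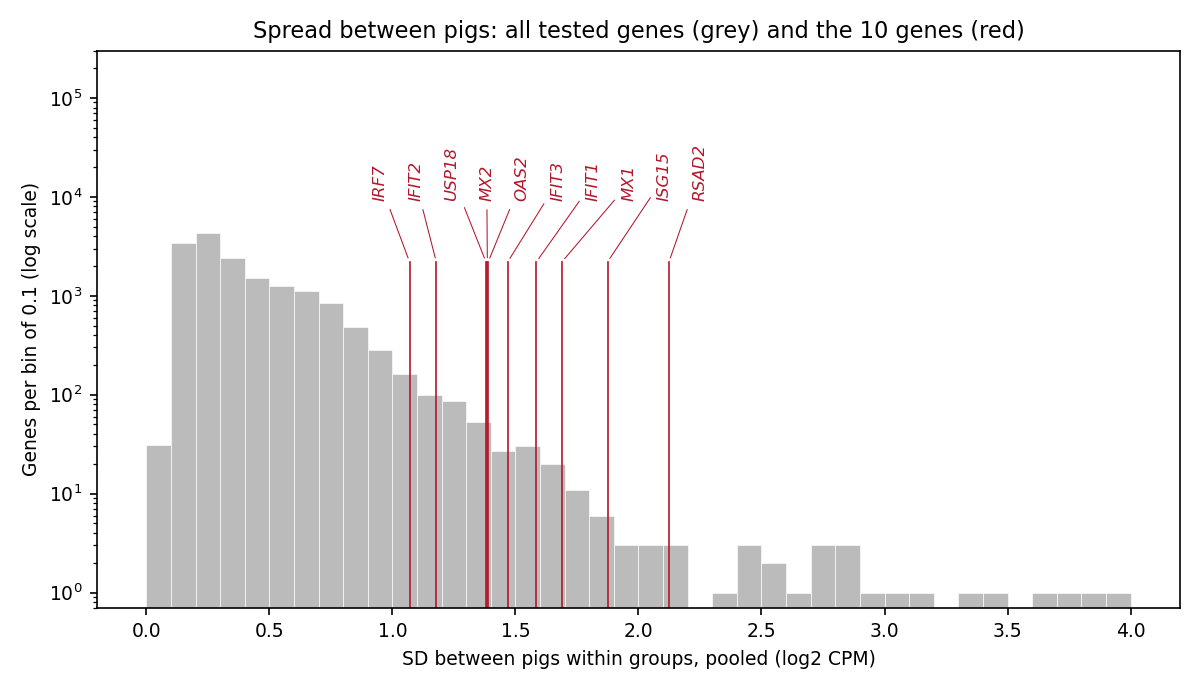
Histogram of the pooled within-group SD of log2 CPM (x axis) for the 16210 tested genes, with the number of genes per bin on a log scale (y axis) and the 10 members as red lines. The members lie between 1.07 (IRF7) and 2.12 (RSAD2), in the sparse right tail of a distribution whose median is 0.31.

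The same pigs were high for all the members. ENT-sham replicate 7 and SLE-BDL replicate 6 were among the 3 highest pigs for each of the 10 genes, and SLE-sham replicate 2 for 9 of them. Only 13 pigs ever entered the 10 highest of any member, and 6 pigs were among the 10 highest for every member. These 6 were ENT-sham replicate 7, ENT-BDL replicate 3, SLE-sham replicate 2, SLE-BDL replicates 6 and 7, and MLE-BDL replicate 6, which come from 5 of the 6 groups. With group means subtracted, the 45 pairs of members correlated at 0.88 (IFIT2 with OAS2) to 0.99 (IFIT1 with RSAD2) in log2 CPM over the 60 pigs, with a median of 0.94. These values come from the same libraries and are a description.

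**Figure D2:**
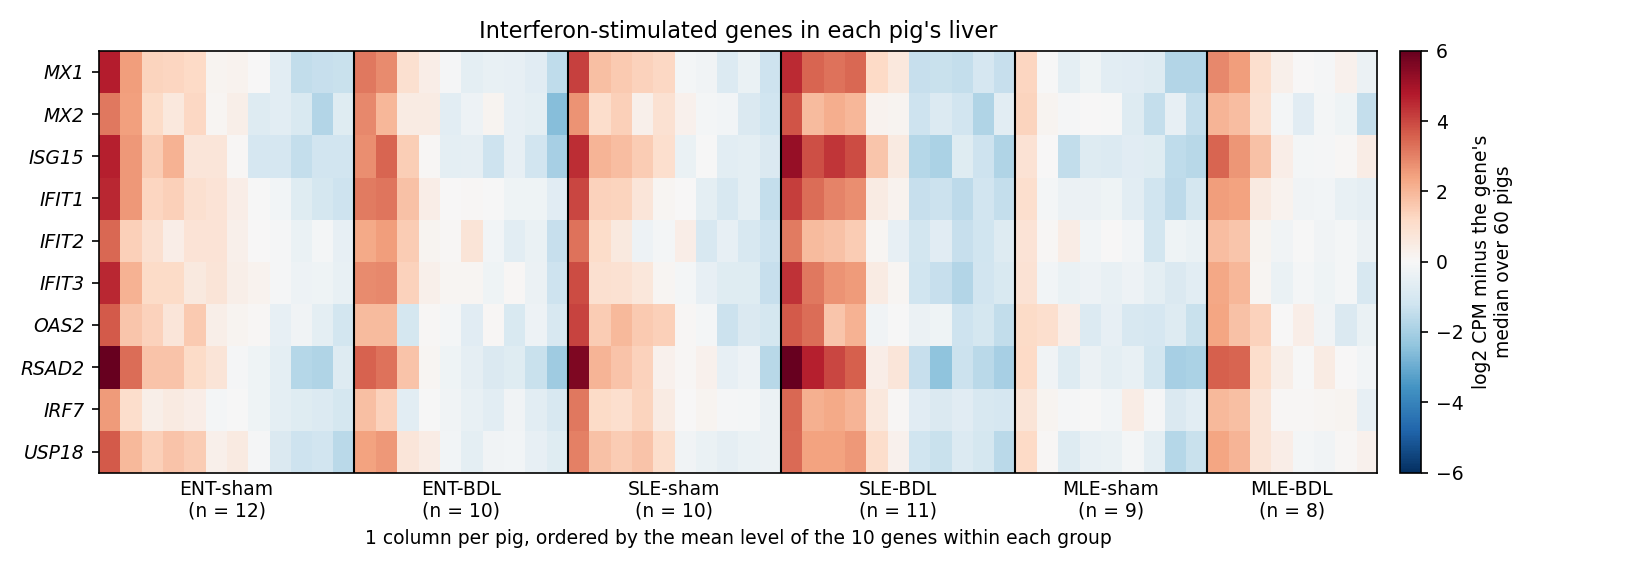
Log2 CPM of the 10 members (rows) minus each gene's median over 60 pigs, with 1 column per pig and the pigs of each group ordered from the highest to the lowest mean level. Columns change colour as a whole: the leftmost pig of each group is red in all rows, and that of MLE-sham is paler than those of the other groups.

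A level per pig was taken as the mean over the members of log2 CPM scaled to an SD of 1 over all pigs. The 3 highest pigs stood at 2.51 (SLE-BDL replicate 6), 2.45 (ENT-sham replicate 7), and 2.29 (SLE-sham replicate 2). Levels above 1 were found most often in SLE-BDL, in 4 of 11 pigs. Both formula-fed groups had 2 such pigs, of 12 sham and 10 BDL animals, SLE-sham had 1 of 10, MLE-BDL had 2 of 8, and MLE-sham had 0 of 9. The group medians of this level ran from -0.50 in MLE-sham to -0.04 in ENT-sham, and every group reached below -0.50. SLE-BDL was the most divided group, with 4 pigs above 1 and a lowest pig at -1.13.

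Genes outside the list that followed the members most closely were themselves interferon-induced. The 10 with the highest Pearson correlation with the members' mean level, after group means were subtracted, were ZNFX1 (0.985), CMPK2 (0.985), ZBP1 (0.984), HERC5 (0.983), IFI44L (0.982), IFI44 (0.981), RTP4 (0.981), HERC6 (0.980), DHX58 (0.980), and EIF2AK2 (0.980), each over 60 pigs. CMPK2 is the mitochondrial nucleotide kinase, HERC5 the ligase that attaches ISG15 to its targets, ZBP1 a sensor of Z-form nucleic acid, and EIF2AK2 the RNA-activated kinase PKR that halts translation. In all, 40 genes outside the list correlated above 0.9, while the median over all tested genes was -0.01.

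High pigs were concentrated among certain label numbers. A level above 1 was found in 6 of 13 number-331 pigs, which were of ENT-sham, ENT-BDL, and SLE-BDL, and in 3 of 8 number-335 pigs. It was found in 1 of 7 pigs each for number-351 and number-352, both MLE-BDL. None of the 4 number-329, 5 number-336, 7 number-348, or 9 number-353 pigs exceeded 1. Medians were 0.54 for number-331 and 0.56 for number-335, against -0.93 for number-336 and -0.98 for number-348. Since no MLE pig was number-331 or number-335, differences between MLE and the other diets run partly between label numbers. A fit with the number as a block is given beside results it changed for the members, and for some of the other genes.

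**Figure D3:**
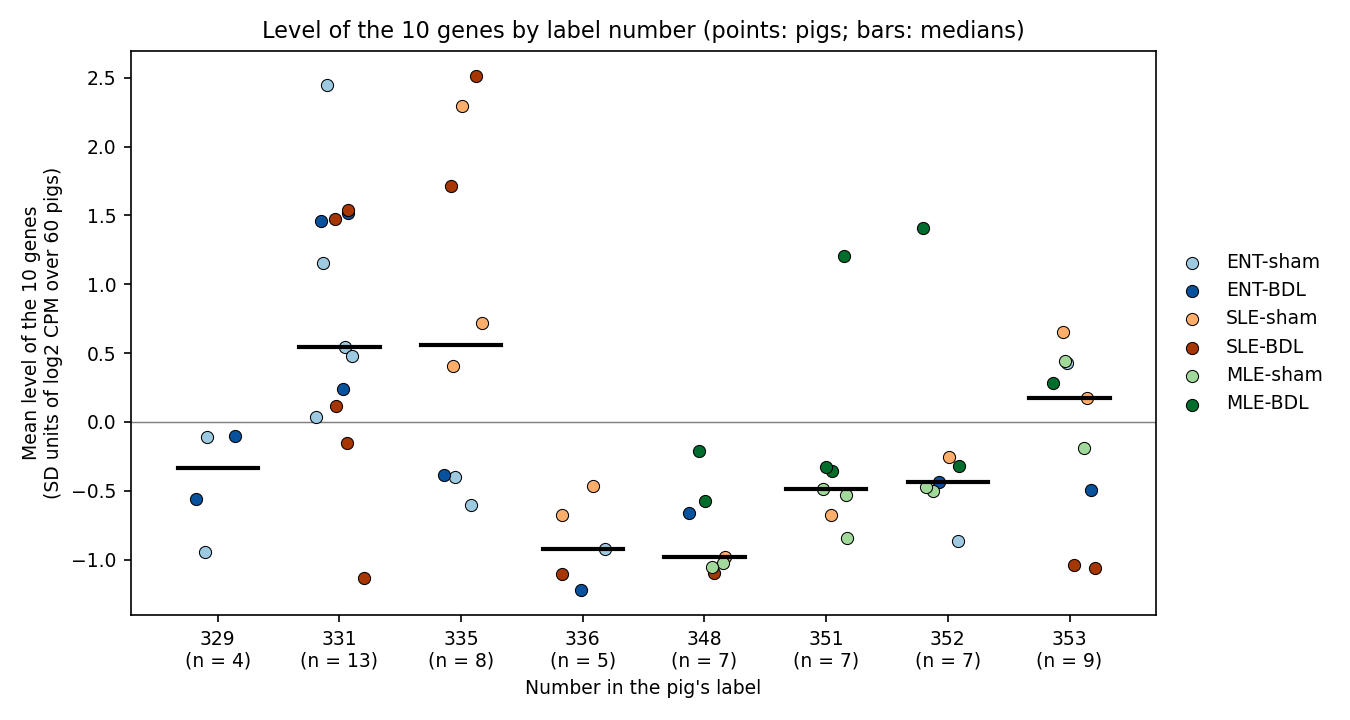
Mean level of the 10 members per pig (y axis, in SD units of log2 CPM over 60 pigs) by the number in the pig's label (x axis), with points coloured by group and bars at the median. Of 11 pigs above 1, 9 were number-331 or number-335, and the MLE pigs (green) lie under number-348 to number-353 only.

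RSAD2 is described first because it varied most. In ENT-sham its lowest, median, and highest values were 3.49, 16.9, and 836 CPM, and in ENT-BDL they were 2.81, 9.62, and 146 CPM. In SLE-sham they were 3.88, 14.9, and 623 CPM, and in SLE-BDL 2.25, 16.4, and 903 CPM. In MLE-sham they were 3.11, 8.38, and 28.9 CPM, and in MLE-BDL 11.05, 16.9, and 153 CPM. All 6 groups overlapped, the highest and lowest group medians differed about 2-fold, and the top of the range was what differed most between MLE-sham and the rest. The narrow side of MLE-BDL was its lower end, since 8 of 9 MLE-sham pigs lay below the lowest MLE-BDL pig, the nearest of them at 11.01 CPM.

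ISG15 had its highest medians in SLE-sham (lowest 9.78, median 26.7, highest 382 CPM) and SLE-BDL (4.69, 26.0, and 667 CPM). In ENT-sham it was measured at 6.50, 23.8, and 455 CPM and in ENT-BDL at 4.47, 12.5, and 200 CPM. In MLE-sham it was 5.58, 10.5, and 32.8 CPM and in MLE-BDL 16.5, 24.0, and 199 CPM. The MLE-BDL pigs again had the highest floor of any group, above 7 of 9 MLE-sham pigs, and the groups otherwise overlapped along nearly their whole range.

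MX1 was measured at 16.6, 53.1, and 1212 CPM (lowest, median, highest) in ENT-sham and at 15.9, 38.8, and 419 CPM in ENT-BDL. It was 19.6, 75.8, and 799 CPM in SLE-sham and 16.9, 71.2, and 1027 CPM in SLE-BDL. In MLE-sham it was 13.5, 30.2, and 112 CPM and in MLE-BDL 35.8, 56.5, and 340 CPM. Its paralog MX2 was lower throughout, with group medians between 8.35 CPM (MLE-BDL) and 11.07 CPM (SLE-sham), and both genes had their highest median in SLE-sham. Neighbouring groups in either order overlapped almost entirely.

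**Figure D4:**
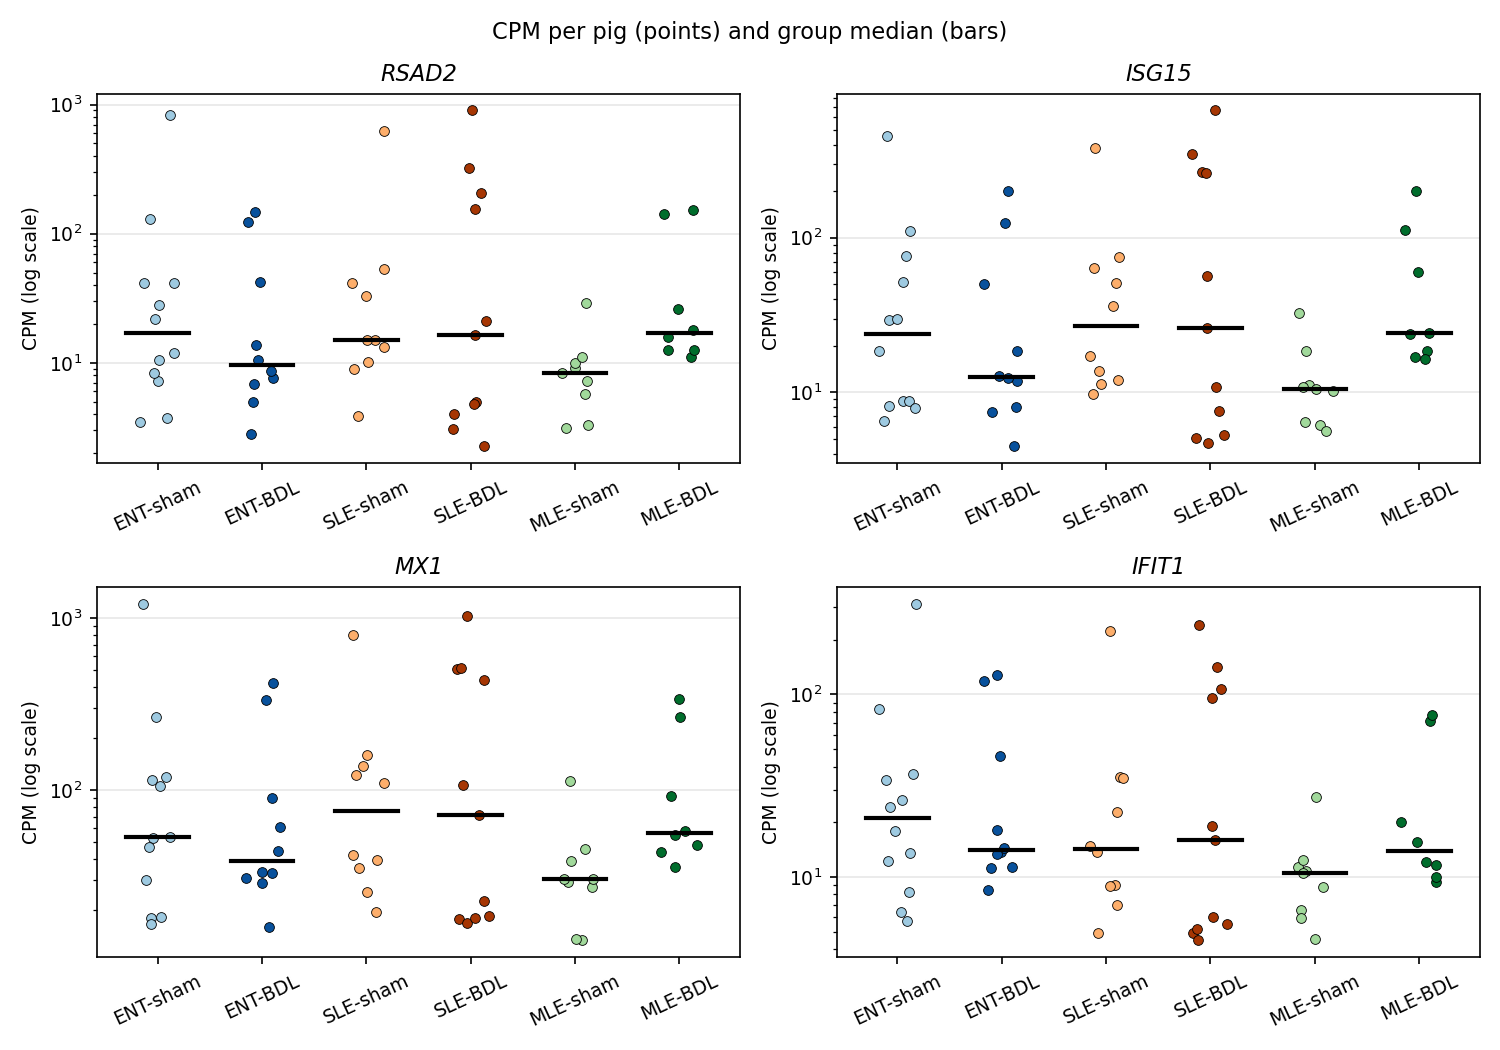
CPM on a log axis (y) of RSAD2, ISG15, MX1, and IFIT1 in each pig (points) of the 6 groups (x axis), with bars at the group medians. For each gene every group has at least 1 pig above 2 times the group median, and at most 5 (ISG15 in SLE-BDL). In MLE-sham this is 1 pig, replicate 9, which lies below the highest pig of every other group. Its RSAD2 value is 28.9 CPM, against 903 CPM for the highest pig of SLE-BDL.

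The remaining members showed the same layout. IFIT1 had group medians from 10.4 CPM (MLE-sham) to 21.0 CPM (ENT-sham), IFIT2 from 11.3 CPM (SLE-BDL) to 20.4 CPM (ENT-sham), and IFIT3 from 12.5 CPM (MLE-sham) to 23.1 CPM (ENT-sham). OAS2 medians ran from 39.9 CPM (MLE-sham) to 128 CPM (SLE-sham), IRF7 from 21.3 CPM (ENT-BDL) to 33.7 CPM (SLE-sham), and USP18 from 8.42 CPM (MLE-sham) to 16.8 CPM (SLE-sham). The lowest of the 6 group medians belonged to MLE-sham for 7 of the 10 members, and the highest to SLE-sham for 6 and to ENT-sham for 3, the 3 IFIT genes. Within a group, the SD over pigs exceeded the mean in CPM for RSAD2 in 5 of the 6 groups, for example 95.3 ± 236 CPM (SD, n = 12) in ENT-sham, the exception being MLE-sham with 9.63 ± 7.74 CPM (SD, n = 9).

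The first comparison, BDL against sham within each diet, addresses the effect of bile duct obstruction. In formula-fed pigs none of the 10 members passed the threshold of an adjusted p under 0.05 (edgeR quasi-likelihood test, Benjamini-Hochberg over all genes tested), while 17.4% of all tested genes did. No member had an unadjusted p under 0.05, and DESeq2 and limma called none. All 10 fitted differences were below 0, with a median of -0.48 on the log2 scale against 0.01 for all tested genes. For RSAD2 the log2 fold change was -1.39 ± 0.98 (SE), with a 95% interval of -3.34 to 0.57, and for ISG15 it was -0.58 ± 0.81, with an interval of -2.21 to 1.05. Without ENT-sham replicate 7 the RSAD2 value was 0.37, so 1 pig set its sign. Blocking by label number left 6 fitted differences above 0 and 4 below.

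In SLE-fed pigs, again, 0 of 10 members were called, against 4.54% of all tested genes, and 0 had an unadjusted p under 0.05 in edgeR, with 0 calls by DESeq2 and by limma. Here 9 of 10 fitted differences were above 0, with a median of 0.63 against 0.01 over all tested genes. The log2 fold change was 1.17 ± 0.83 (SE) for ISG15, with a 95% interval of -0.50 to 2.84, and 0.87 ± 0.97 for RSAD2, with an interval of -1.08 to 2.82. Leaving out SLE-BDL replicate 6 brought RSAD2 to -0.15, and leaving out SLE-sham replicate 2 brought it to 2.78. When label number was a block all 10 fitted differences were below 0, with a median of -0.42, and none was called.

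In MLE-fed pigs all 10 fitted differences between BDL and sham were above 0, with a median of 1.15 on the log2 scale against 0.00 over all tested genes. None passed the threshold in the model of the 6 groups (edgeR), where 14.4% of all tested genes did, and DESeq2 and limma called none. The unadjusted p was under 0.05 for 2 members, ISG15 and RSAD2. ISG15 differed by 2.24 ± 0.96 (log2, SE; adjusted p = 0.11) and RSAD2 by 2.34 ± 1.14 (adjusted p = 0.17). MX1 differed by 1.63 ± 0.87, IFIT1 by 1.38 ± 0.84, and USP18 by 1.25 ± 0.69, and the smallest value was that of IFIT2, 0.62 ± 0.63. When MLE-BDL and MLE-sham alone entered the edgeR model, 3 members rose, MX1, ISG15, and RSAD2, against 19.5% of the genes tested there.

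The MLE-BDL and MLE-sham pigs share the same 4 label numbers, so this comparison can be made within them. With the label number as a block, 4 members rose in MLE-BDL, where 17.5% of all tested genes were called in either direction. ISG15 rose by 2.38 ± 0.72 (log2, SE; edgeR adjusted p = 0.016), RSAD2 by 2.50 ± 0.86 (adjusted p = 0.037), MX1 by 1.90 ± 0.65 (adjusted p = 0.035), and USP18 by 1.52 ± 0.54 (adjusted p = 0.043). Estimates for these members differed little from those without the block, and their SEs were smaller. The calls rested on both of the high MLE-BDL pigs: without MLE-BDL replicate 4 or without MLE-BDL replicate 6, 0 of 10 members were called and the RSAD2 values were 1.85 and 1.90. Leaving out any 1 of MLE-sham replicates 1 to 8 left 1 or 2 calls, ISG15 in each case.

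The values behind this can be read number by number for ISG15. Under number-348 the 2 MLE-BDL pigs had 23.8 and 24.2 CPM and the 2 MLE-sham pigs 6.16 and 5.58 CPM. Under number-351 the MLE-BDL pigs had 18.5, 112, and 16.8 CPM and the MLE-sham pigs 11.2, 10.5, and 10.8 CPM. Under number-352 the values were 199 and 16.5 CPM against 10.2 and 6.44 CPM, and under number-353 they were 59.8 CPM against 18.4 and 32.8 CPM. Every MLE-BDL pig thus lay above every MLE-sham pig of its own number, including the 6 that were not outstandingly high. ISG15 was the only member for which this held in all 4 numbers, as it did for 3.92% of all tested genes.

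RSAD2, MX1, and OAS2 were separated in the same way within 3 of the 4 numbers. With ISG15 they made 4 of 10 members separated within at least 3 numbers, as were 12.1% of all tested genes. RSAD2 under number-348 was 15.8 and 11.05 CPM in MLE-BDL and 3.11 and 3.27 CPM in MLE-sham. Under number-353 it was 26.1 CPM in the MLE-BDL pig and 11.01 and 28.9 CPM in the MLE-sham pigs, the one number in which its groups overlapped. MX2 and IFIT2 were not separated within any of the 4 numbers.

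Diet was compared among sham pigs next, which asks what parenteral nutrition did without obstruction. These comparisons share the same ENT-sham, SLE-sham, and MLE-sham pigs and are not independent of each other or of those within each diet. MLE-sham against ENT-sham was the single comparison in which members passed the threshold in the model of the 6 groups. RSAD2 was lower by a log2 fold change of -3.30 ± 1.12 (SE; edgeR adjusted p = 0.028), ISG15 by -2.43 ± 0.92 (adjusted p = 0.049), and IFIT1 by -2.15 ± 0.80 (adjusted p = 0.047). These 3 of 10 members compare with 21.1% of all tested genes called in either direction. IFIT3 (adjusted p = 0.0515), MX1 (adjusted p = 0.0535), and USP18 (adjusted p = 0.0727) lay just outside the edgeR threshold, and all 10 fitted differences were below 0, with a median of -1.79 against -0.01 over all tested genes.

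The 3 calls depended on 1 animal. Without ENT-sham replicate 7, which had 836 CPM of RSAD2, 0 of 10 members were called (edgeR), and the log2 fold changes were -1.54 for RSAD2 (adjusted p = 0.28) and -1.37 for ISG15 (adjusted p = 0.26). Without ENT-sham replicate 5, or without any 1 of MLE-sham replicates 1 to 8, RSAD2 alone was called, and 6 members were called without MLE-sham replicate 9. Of all 60 fits that left out 1 pig, the call was lost in 27 for ISG15, in 10 for IFIT1, and in 1 for RSAD2. Group medians differed less than the fitted means, at 16.9 against 8.38 CPM for RSAD2, 23.8 against 10.5 CPM for ISG15, and 21.0 against 10.4 CPM for IFIT1. Without the matching pair of ENT libraries 5 members were called, against 22.9% of all tested genes. By DESeq2 6 were called, against 19.6% of all genes with an adjusted p, and by limma on log2 CPM none, although 6 members had an unadjusted p under 0.05 in edgeR.

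They also depended on the label number. With the number as a block no member was called (edgeR), against 17.9% of all tested genes, no member had an unadjusted p under 0.05, and 9 of 10 fitted differences were above 0, with a median of 0.15. For RSAD2 the value was 0.05 ± 0.96 (log2, SE), with a 95% interval of -1.89 to 1.99. Only number-352 and number-353 hold pigs of both groups. Under number-352 RSAD2 was 3.74 CPM in the ENT-sham pig and 8.38 and 7.25 CPM in the MLE-sham pigs, and under number-353 it was 28.3 CPM in the ENT-sham pig and 11.01 and 28.9 CPM in the MLE-sham pigs. Within both numbers, therefore, at least 1 MLE-sham pig was as high as the ENT-sham pig, whereas 5 of the 12 ENT-sham pigs, the 2 highest included, were number-331.

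Between SLE-sham and ENT-sham no difference in the members was detected. None of 10 was called (edgeR), against 27.5% of all tested genes, none had an unadjusted p under 0.05, and DESeq2 and limma called none. RSAD2 differed by -0.23 ± 0.95 (log2, SE), with a 95% interval of -2.12 to 1.67, and ISG15 by -0.01 ± 0.80, with an interval of -1.62 to 1.60. The RSAD2 value was -2.15 without SLE-sham replicate 2 and 1.54 without ENT-sham replicate 7. The fitted differences were below 0 for 8 of 10 members (median -0.21), but above 0 for 9 of 10 with the label number block (median 0.61, with ISG15 at 1.11 and 1 member, IRF7, at an unadjusted p under 0.05). Between MLE-sham and SLE-sham all 10 differences were below 0, with RSAD2 at -3.08 ± 1.13 and ISG15 at -2.43 ± 0.94. Both values rested in large part on SLE-sham replicate 2, without which they were -1.16 and -1.37. In that comparison 8 of 10 members had an unadjusted p under 0.05, but none passed after adjustment (edgeR, lowest adjusted p = 0.21), where 0.999% of all tested genes did. DESeq2 called 1 member there, RSAD2, against 1.49% of all genes, and limma none, and with the label number as a block the median difference was -0.28 and 0 members had an unadjusted p under 0.05.

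Among BDL pigs, which were compared to ask how diet acted under obstruction, the model of the 6 groups called no member. For SLE-BDL against ENT-BDL all 10 fitted differences were above 0, with a median of 1.00, and RSAD2 at 2.03 ± 1.01 and ISG15 at 1.75 ± 0.85 (log2, SE). Without SLE-BDL replicate 6 these were 1.01 and 1.14. The unadjusted p was under 0.05 for 3 members (ISG15, RSAD2, and IRF7), 0 of 10 passed after adjustment (edgeR), and 19.6% of all tested genes did. DESeq2 and limma also called 0. Blocking by label number gave a median of 0.09.

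For MLE-BDL against ENT-BDL the members divided, with 6 fitted differences above 0 and 4 below. None was called (edgeR), none had an unadjusted p under 0.05, and 16.8% of all tested genes were called, while DESeq2 and limma called 0 members. RSAD2 differed by 0.43 ± 1.05 and ISG15 by 0.39 ± 0.89 (log2, SE), and by -0.094 and -0.21 without MLE-BDL replicate 6. With the label number as a block all 10 were above 0 and 3 rose, against 13.2% of all tested genes called: ISG15 by 2.89 ± 0.83 (edgeR adjusted p = 0.015), RSAD2 by 3.09 ± 1.02 (adjusted p = 0.034), and MX1 by 2.16 ± 0.76 (adjusted p = 0.049). Without MLE-BDL replicate 6 none of these was called, and ISG15 alone was called without MLE-BDL replicate 4 or without ENT-BDL replicate 6, 9, or 10. Without ENT-BDL replicate 8, 5 members were called. Only number-348, number-352, and number-353 hold pigs of both groups, with 1 ENT-BDL pig each (replicates 8, 9, and 10). The direct comparison within numbers therefore rests on these single ENT-BDL pigs.

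MLE-BDL and SLE-BDL, which separate the lipid emulsions under obstruction, gave 0 calls among 10 members and calls for 0.907% of all tested genes (edgeR), with 0 members at an unadjusted p under 0.05 and 0 by DESeq2 or limma. RSAD2 differed by -1.60 ± 1.08, with a 95% interval of -3.76 to 0.55, and ISG15 by -1.36 ± 0.91, with an interval of -3.17 to 0.45. Without SLE-BDL replicate 6 the values were -0.59 and -0.76. All 10 fitted differences were below 0 without the block and above 0 with it, when the median was 1.59 and 7 members had an unadjusted p under 0.05. The sign of the difference between the emulsions thus depended on the block. Only number-348 and number-353 hold pigs of both groups. Their SLE-BDL pigs, replicates 9, 10, and 11, had mean levels of the members of -1.09, -1.06, and -1.04, which ranked 57, 56, and 54 of 60.

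**Figure D5:**
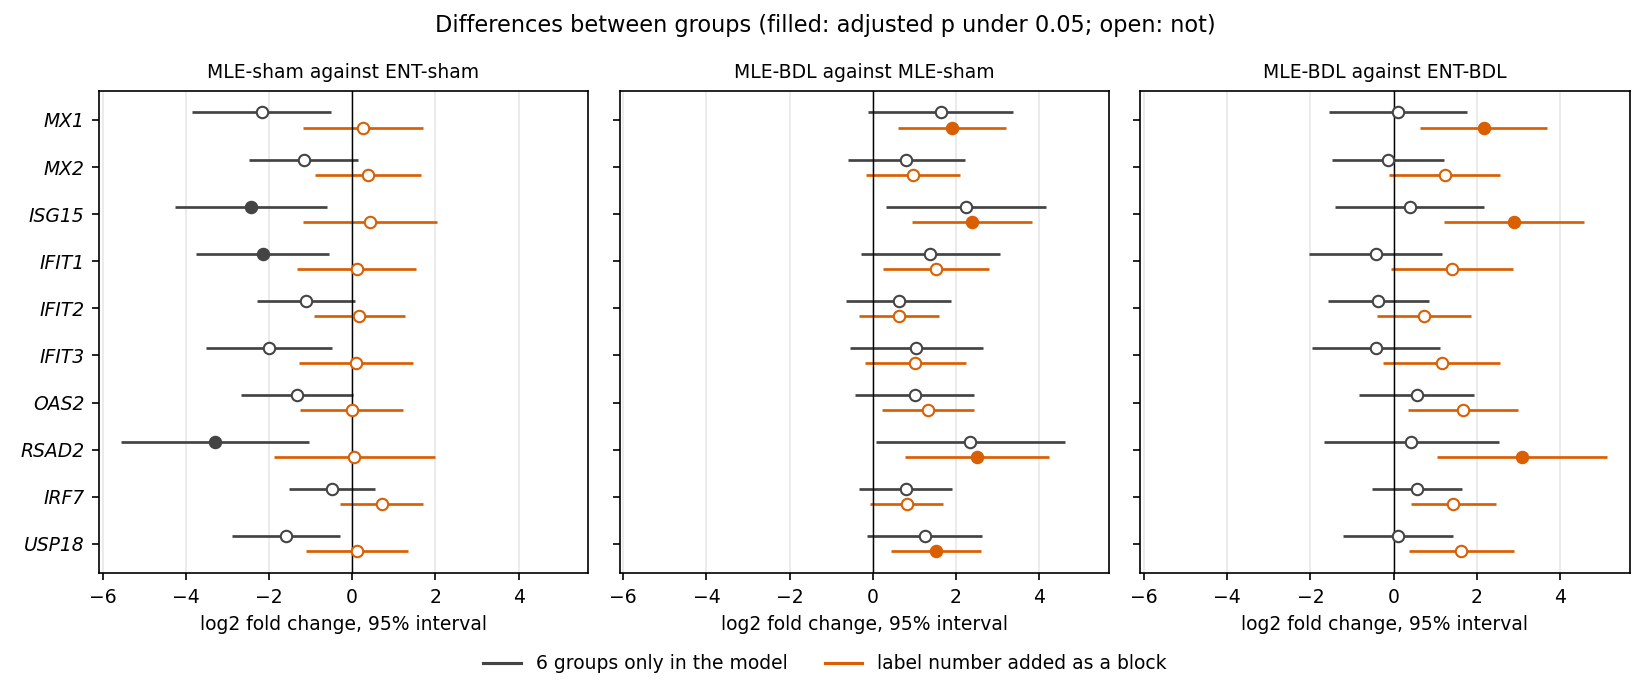
Log2 fold changes (x axis) with 95% intervals for the 10 members (y axis) in 3 comparisons, from the model of the 6 groups (grey) and with the label number as a block (orange); filled points passed an adjusted p under 0.05. MLE-sham against ENT-sham moves from -3.30 to 0.05 for RSAD2, MLE-BDL against MLE-sham stays near its value (2.34 and 2.50), and MLE-BDL against ENT-BDL moves from 0.43 to 3.09.

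Interaction terms tested the BDL effect on one diet against that on another. No member passed in any of the 3 tests (edgeR), and DESeq2 and limma called none. For MLE against ENT, where 0.0617% of all tested genes passed, all 10 interaction values were above 0 with a median of 1.71, and 2 members had an unadjusted p under 0.05. Those were RSAD2, at 3.73 ± 1.499 (log2, SE; adjusted p = 0.43), and ISG15, at 2.82 ± 1.25 (adjusted p = 0.50), and without ENT-sham replicate 7 they were 1.96 and 1.75. For SLE against ENT, where 2.33% of all tested genes passed, RSAD2 stood at 2.26 ± 1.38 and ISG15 at 1.76 ± 1.16, which became 0.49 and 0.69 without ENT-sham replicate 7 and 4.17 and 2.81 without SLE-sham replicate 2. For MLE against SLE, where 0.265% passed, they stood at 1.47 ± 1.47 and 1.07 ± 1.24, and neither of these 2 tests gave a member an unadjusted p under 0.05. Without SLE-sham replicate 2 the MLE against SLE values were -0.45 for RSAD2 and 0.0051 for ISG15. With the label number as a block the median interaction was 1.40 for MLE against ENT, 1.90 for MLE against SLE, and -0.46 for SLE against ENT. Again no member was called, and 5, 6, and 0 of 10 members had an unadjusted p under 0.05 in that order.

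The other genes of the pathway were taken from lists written by hand. Interferon ligands were barely detected: of 34 genes of the interferon alpha, beta, delta, omega, gamma, and related families, 1 (IFN-DELTA-2) passed the filter on low counts, and no ligand exceeded 25 counts in any pig. IFNB1, the ligand usually made first, reached at most 1 count, and IFN-ALPHA-14 and IFN-DELTA-8 were at 0 in every pig. The summed level of the ligands had group medians between 1.71 CPM (SLE-BDL) and 2.34 CPM (ENT-BDL), and on the log2 scale this sum correlated with the members' level within groups at -0.09 over 60 pigs. A poly-A library of whole liver at this depth limits what can be said of transcripts so rare.

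Receptors and signal transducers, all 14 of them tested, included genes called under BDL on each diet. IFNGR2, a chain of the receptor for interferon gamma, rose with BDL on each diet, by 0.84 ± 0.13 on ENT, 0.57 ± 0.14 on SLE, and 0.71 ± 0.15 on MLE (log2, SE). IFNAR2, the signalling chain of the type I receptor, rose by 0.60 ± 0.11 on ENT and 0.54 ± 0.13 on MLE. IFNLR1, the receptor for interferon lambda, fell on both, with log2 fold changes of -0.61 ± 0.13 and -0.50 ± 0.15. In counts, 4 rose and 1 fell on ENT, 2 rose on SLE, and 2 rose and 2 fell on MLE, out of 14, against 17.4%, 4.54%, and 14.4% of all tested genes called in these comparisons. IFNAR1 was among those that rose on ENT, by 0.30 ± 0.10, a call lost in 3 of 60 fits that left out 1 pig. The other gene that fell on MLE was STAT2, at -0.36 ± 0.12 (edgeR adjusted p = 0.037), a call lost in 7 of 60 such fits. STAT2 correlated with the members' level within groups at 0.77. In MLE-sham against ENT-sham 2 of 14 were higher and 0 lower, against 21.1% of all tested genes called. These were JAK2 (0.31 ± 0.11) and IFNAR1 (0.28 ± 0.10), with the calls lost in 2 and 8 of 60 fits that left out 1 pig. In SLE-sham against ENT-sham 5 of 14 were higher and 0 lower, against 27.5%, with JAK1 at 0.38 ± 0.07. The level of this list correlated with that of the members at 0.67 within groups over 60 pigs. SOCS1, an inhibitor of JAK signalling, rose with BDL on SLE by 1.06 ± 0.30 and differed in its response from ENT by 1.73 ± 0.42 (edgeR adjusted p = 0.015). With label number as a block the SOCS1 rise on SLE was not called (0.79 ± 0.31, edgeR adjusted p = 0.15). The calls of IFNGR2, IFNAR2, and IFNLR1 under BDL and of the SOCS1 difference from ENT were kept. SOCS1 in SLE-BDL had a median of 7.68 CPM and a highest value of 71.3 CPM, in replicate 9, without which the values were 0.44 ± 0.23 within SLE (not called, adjusted p = 0.33) and 1.13 ± 0.32 for the difference from ENT (adjusted p = 0.042).

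Among 16 nucleic acid sensors and inducers, IKBKE, a kinase that activates IRF3 and IRF7, rose with BDL by 1.498 ± 0.19 on ENT and 1.02 ± 0.22 on MLE (log2, SE). The endosomal DNA receptor TLR9 rose by 0.73 ± 0.20 and 1.16 ± 0.23 in the same comparisons. Both were also higher in SLE-sham than in ENT-sham, IKBKE by 1.34 ± 0.19 and TLR9 by 0.87 ± 0.20, and the BDL response of IKBKE on SLE differed from that on ENT by -1.22 ± 0.27 (edgeR adjusted p = 0.0062). The double-stranded RNA receptor TLR3 rose on MLE by 0.76 ± 0.18. Of the list, 2 rose and 2 fell on ENT, none was called on SLE, and 3 rose on MLE, against the same shares of all tested genes (17.4%, 4.54%, and 14.4%). In MLE-sham against ENT-sham 3 fell, namely DDX58, the RNA sensor RIG-I, at -1.63 ± 0.56, TLR3 at -0.62 ± 0.16, and MAVS, the adaptor on mitochondria, at -0.32 ± 0.08, so that 3 of 16 were called against 21.1% of all tested genes. Without ENT-sham replicate 7 DDX58 was at -0.76 ± 0.48 and not called. Under the label number block DDX58 stood at -0.24 ± 0.55 and TLR3 at -0.40 ± 0.18, neither of them called, and MAVS at -0.29 ± 0.10, still called. In MLE-sham against SLE-sham, where 0.999% of all tested genes were called, 3 of 16 were lower, namely IKBKE (-0.95 ± 0.21), TLR9 (-0.91 ± 0.22), and IRF3, a transcription factor that induces interferon (-0.41 ± 0.11). The block kept the call of IRF3 but not those of IKBKE (-0.79 ± 0.22) and TLR9 (-0.76 ± 0.25), and leaving out 1 pig lost the call of IRF3 in 22 of 60 fits and that of TLR9 in 3. DDX58 and several other genes of this list are themselves known to be induced by interferon. The level of the list correlated with that of the members at 0.95 within groups over 60 pigs.

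Of 31 further interferon-stimulated effectors that were tested, at most 3 were called in any comparison of the model of the 6 groups. ISG20, an exonuclease, rose with BDL by 1.17 ± 0.41 on ENT and 1.98 ± 0.47 on MLE (log2, SE), and was the one effector called in each, although on ENT the call was lost on leaving out any 1 of 10 pigs in turn. On SLE 0 of 31 were called (edgeR). The shares of all tested genes called were 17.4% on ENT, 14.4% on MLE, and 4.54% on SLE. In MLE-sham against ENT-sham 0 rose and 3 fell, with PARP14 at -1.27 ± 0.39, TDRD7 at -0.54 ± 0.17, and IFI6 at -1.78 ± 0.67, against 21.1% of all tested genes called, and the median over the list was -0.93. Without ENT-sham replicate 7 neither PARP14 (-0.78 ± 0.35) nor TDRD7 (-0.36 ± 0.14) was called, and the call of IFI6 was lost in 23 of 60 fits that left out 1 pig. Without the matching ENT libraries 5 fell. In the fit with the label number block 0 of 31 were called (edgeR), the median was 0.18, and PARP14 stood at -0.40 ± 0.42, TDRD7 at -0.18 ± 0.18, and IFI6 at -0.46 ± 0.63. On MLE the block raised the count that rose with BDL from 1 to 3, where 17.5% of all tested genes were called. The level of this list correlated with that of the members at 0.99. OASL, a relative of OAS2, was higher in SLE-BDL than in ENT-BDL by 3.12 ± 0.73, though its level was low in both, at mean values of 3.69 and 0.42 CPM. SLE-BDL replicate 6 alone had 27.8 CPM, against 3.74 CPM in the next pig, and without it the value was 1.60 ± 0.61 (not called, adjusted p = 0.058). Blocking by label number gave 2.08 ± 0.63, still called. XAF1 was listed at 0 in every pig.

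The 23 tested genes of the interferon gamma response and antigen presentation were mostly not called: 0 under BDL on ENT and on SLE, and 1 on MLE (PSMB10, a subunit of the immunoproteasome, which rose by 0.56 ± 0.17, with the call lost without MLE-BDL replicate 1), against 17.4%, 4.54%, and 14.4% of all tested genes. In MLE-sham against ENT-sham the chemokine CXCL11 (-2.93 ± 0.78) and B2M (-1.09 ± 0.36), the light chain of MHC class I, fell, and WARS rose by 0.31 ± 0.10 (log2, SE), which makes 3 of 23 called against 21.1% of all tested genes. The call of B2M was lost without ENT-sham replicate 4, and that of WARS in 3 fits that left out 1 pig, MLE-sham replicate 6 among them. With the label number block CXCL11 (-1.75 ± 0.71) and B2M (-0.52 ± 0.38) were not called, while WARS (0.33 ± 0.11) was. The level of this list correlated with that of the members at 0.76 within groups over 60 pigs.

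Markers of other cell types were examined beside the members. Across 60 pigs with group means subtracted, the correlation with the members' level was 0.38 for 12 Kupffer cell and macrophage markers, 0.42 for 7 dendritic cell markers, 0.37 for 10 T and NK cell markers, 0.26 for 6 B and plasma cell markers, and -0.05 for 8 monocyte and neutrophil markers. In MLE-sham against ENT-sham, where 21.1% of all tested genes were called, 1 of 12 Kupffer cell and macrophage markers and 1 of 7 dendritic cell markers were lower, and none of the T and NK, B and plasma cell, or monocyte and neutrophil markers was called. The summed Kupffer cell and macrophage level was 1261 to 2784 CPM in ENT-sham and 1384 to 2340 CPM in MLE-sham, and no marker on these lists was at 0 in every pig. In MLE-BDL against MLE-sham, where 14.4% of all tested genes were called (17.5% with the label number block), 1 Kupffer cell and macrophage marker rose (MARCO) and 3 fell (6 with the block), and the summed level was 1134 to 1780 CPM in MLE-BDL. Of 8 monocyte and neutrophil markers 2 rose there, CSF3R by 1.78 ± 0.34 and FCN1 by 1.37 ± 0.37 (log2, SE). CD14 fell, with a log2 fold change of -0.53 ± 0.13, and the median over the list was 0.92. The summed level was 401 to 505 CPM in MLE-BDL and 515 to 858 CPM in MLE-sham. This sum was mostly CD14, with means of 422 and 611 CPM in these groups. Means were 8.24 and 2.39 CPM for CSF3R and 4.59 and 1.77 CPM for FCN1. Among the rest, 1 of 7 dendritic cell markers rose, 1 of 6 B and plasma cell markers, 2 of 8 endothelial markers, and 2 of 8 erythroid markers fell, and no T and NK cell marker was called. All 7 cholangiocyte markers rose, 5 of 7 hepatocyte markers fell, and 3 of 7 stellate cell and myofibroblast markers rose and 1 fell. The correlation with the members' level within groups was -0.28 for the cholangiocyte and 0.07 for the hepatocyte markers, -0.34 for 8 endothelial, 0.07 for 7 stellate cell and myofibroblast, and -0.08 for 8 erythroid markers. In MLE-sham against ENT-sham 1 cholangiocyte marker was higher, 1 hepatocyte marker was higher and 1 lower, 2 erythroid markers were lower, and no endothelial or stellate cell marker was called. Blocking by label number, the Kupffer cell and macrophage (VSIG4), dendritic cell (CD1D), cholangiocyte (KRT19), and both erythroid (HBB and AHSP) calls of that comparison were lost, as was that of the lower hepatocyte marker (TTR), and the higher hepatocyte marker (TF) was kept. Other genes were called in that fit, in which 17.9% of all tested genes were called, so that 1 Kupffer cell and macrophage, 1 monocyte and neutrophil, and 1 hepatocyte marker were lower and 1 cholangiocyte and 3 hepatocyte markers, TF included, were higher. Without the matching ENT libraries 3 of 7 cholangiocyte markers were higher, against 22.9% of all tested genes called. The part of cell content in the members' differences was not tested.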

How the data were processed

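Paired-end reads of poly-A liver RNA from 60 pigs were aligned by the authors to Sscrofa11.1 with HISAT2 (2.0.5) and counted per gene with featureCounts (1.5.0-p3); the submitters' notes also name StringTie (1.3.3). The deposited values are raw read counts, used as deposited, with gene positions and lengths from columns of the same table. How strand was set in counting is not given in the sources used here. The 24 features without a name (0.0084% to 0.041% of counts) were left out.

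All pigs entered 1 edgeR (4.0.16, R 4.3.3) quasi-likelihood model with TMM scaling, filterByExpr on the 6 groups, and robust dispersion. Calls required an adjusted p (Benjamini-Hochberg, 16210 genes) under 0.05, two-sided, at any fold change. The study's methods name DESeq2. Log2 CPM used a prior count of 2, and intervals are 95%. Figures used Python 3.11.15 with matplotlib 3.10.9. Alternatives were RLE scaling, DESeq2 (1.42.0) on all pigs, edgeR on the groups compared, no filter, blocks by replicate or label number, a fold change above 2, and leaving out the matching ENT libraries or each pig in turn. Added after the data were seen were limma (3.58.1) on log2 CPM, DESeq2 without replaced counts, leaving out each pig of MLE-sham, MLE-BDL, and ENT-BDL with the label number as a block, and, for the gene lists, the block, the loss of the matching libraries, and each pig left out. The edgeR, limma, and DESeq2 fits on groups alone were tested on simulated data. Those data had independent genes and no effect of label number, and the fit with the label number block was not tested on them.

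The members and lists were chosen with earlier results of these data known. Named in the text are all 10 members, the 10 genes most like the members, and a part of the called genes of the interferon lists. The latter were taken from up to 4 called genes of each list and comparison (lowest adjusted p), not all of which are named. MARCO, CSF3R, FCN1, CD14, VSIG4, CD1D, KRT19, HBB, AHSP, TTR, TF, XAF1, LIPA, LOC110261384, and the relatives of the members were named after their values were seen. Of the SLE-sham libraries, 9 and 10 have an identical pig name in their labels but differed by a chi-square per degree of freedom of 31.7 and were both kept. The labels do not say that animals of different replicate number were littermates or processed together. Sequences and promoters were not analysed here.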

Additional observations from a re-analysis of the deposited data

Results flagged for a closer look

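In groups of 8 to 10 pigs, 18 of 40 combinations of member and group had a highest pig set apart from the next by more than Dixon's critical value on the CPM scale, and 6 did on the log2 scale. For independent tests of normally distributed values chance gives about 1 in 20, but CPM values are skewed and the members rise in the same pigs (correlations of 0.88 to 0.99 between members), so the 18 cannot be read against that rate. Of the 18, 17 were from 2 pigs.

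SLE-sham replicate 2 was set apart for all 10 members, at 799 CPM for MX1, 58.9 CPM for MX2, 382 CPM for ISG15, 223 CPM for IFIT1, 153 CPM for IFIT2, 254 CPM for IFIT3, 1151 CPM for OAS2, 623 CPM for RSAD2, 241 CPM for IRF7, and 94.6 CPM for USP18. The second highest SLE-sham pig had 52.8 CPM for RSAD2 and 32.7 CPM for IFIT3. MLE-sham replicate 9 was set apart for 7 members at much lower levels, namely 112 CPM for MX1, 22.7 CPM for MX2, 32.8 CPM for ISG15, 27.4 CPM for IFIT1, 29.9 CPM for IFIT3, 28.9 CPM for RSAD2, and 26.4 CPM for USP18. ENT-BDL replicate 3 was set apart for MX2 alone, at 67.4 CPM. The groups of 11 and 12 pigs were outside the range of this test.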

How the results depend on the processing

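The 9 comparisons and 3 interactions were refitted under each alternative. Of 120 counts of called members, 107 stayed within 1.5 times the reported count. Except for MLE-sham against ENT-sham the reported count was 0, so elsewhere this means only that 0 stayed 0. For MLE-sham against ENT-sham, where 3 members were called, 6 were called by DESeq2 with or without replaced counts, 5 with the compared groups alone, 5 without the matching ENT libraries, 1 with no filter on low counts, and 0 with the replicate block, the label number block, or limma. For MLE-BDL against MLE-sham, where 0 were called, 3 were called with the compared groups alone and 4 with the label number block. For MLE-BDL against ENT-BDL 3 were called with the label number block, and for MLE-sham against SLE-sham 1 by DESeq2 with or without replaced counts. RLE scaling and a fold change above 2 changed none of the counts.

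With the label number block these log2 fold changes changed sign. For SLE-BDL against SLE-sham ISG15 was -0.26 and RSAD2 -0.57, for MLE-BDL against SLE-BDL ISG15 was 1.95 and RSAD2 2.51, for SLE-sham against ENT-sham ISG15 was 1.11 and RSAD2 0.60, and for the SLE against ENT interaction ISG15 was -0.17 and RSAD2 -0.024. For MLE-sham against ENT-sham MX1 was 0.26, MX2 0.37, ISG15 0.42, IFIT1 0.11, IFIT2 0.17, IFIT3 0.096, RSAD2 0.051, IRF7 0.71, and USP18 0.12. The replicate block gave -0.0053 for RSAD2 in SLE-BDL against SLE-sham, and 0.36 for ISG15 and 0.48 for RSAD2 in SLE-sham against ENT-sham. Limma gave 0.11 for RSAD2 in MLE-BDL against SLE-BDL, and 0.28 for ISG15 and 0.094 for RSAD2 in SLE-sham against ENT-sham. The cause of these changes was not tested.

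Leaving out each of 60 pigs in turn moved the count of called members between 0 (without ENT-sham replicate 7) and 6 (without MLE-sham replicate 9) for MLE-sham against ENT-sham, with 1 call without ENT-sham replicate 5 or without any 1 of MLE-sham replicates 1 to 8. It gave 0 to 1 for SLE-BDL against ENT-BDL, the call being IRF7 without ENT-BDL replicate 3 and ISG15 without ENT-BDL replicate 5. Signs changed within these ranges of log2 fold change: for ENT-BDL against ENT-sham ISG15 -1.28 to 0.47 and RSAD2 -1.98 to 0.37, for SLE-BDL against SLE-sham RSAD2 -0.15 to 2.78, for MLE-BDL against ENT-BDL ISG15 -0.21 to 1.06 and RSAD2 -0.094 to 1.01, for SLE-sham against ENT-sham ISG15 -1.07 to 1.05 and RSAD2 -2.15 to 1.54, for MLE-sham against ENT-sham IRF7 -0.61 to 0.0050, and for the MLE against SLE interaction RSAD2 -0.45 to 2.48. In the other 31 of 40 fold changes no sign changed.

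Replicate numbers in the labels did not pair the pigs: across 28 pairs of same-numbered pigs the correlation of deviations from the group means had a median of 0.064 (-0.18 to 0.38). The replicate block called 0 members for MLE-sham against ENT-sham and changed no other call. The promoter motif search was not run. The lowest count of any member in any pig was 26, for MX2, so no member was near the detection limit at these depths.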
